A study of Mus musculus with 2 samples.

Results

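The 39 Hox cluster genes of the mouse were followed in open chromatin of the adrenal gland. Members were all protein-coding genes of GENCODE vM21 (mm10) whose symbol is Hoxa, Hoxb, Hoxc or Hoxd and a number, 39 of 21802 protein-coding genes used. There were 11 in the Hoxa cluster on chromosome 6, 10 in Hoxb on chromosome 11, 9 in Hoxc on chromosome 15 and 9 in Hoxd on chromosome 2. Tissue was taken from adult males of the F1 hybrid B6CASTF1/J at 18 to 20 months of age, and the labels name no treatment. DNase-seq, in which DNase I cuts accessible DNA of isolated nuclei, gave 2 libraries of 1 group, biological replicates 1 and 2. Both libraries have 1 donor entry, and the labels do not say whether separate animals were used, so spreads below measure only these samples. With 1 condition the comparisons were between genes, between clusters and between the libraries.

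Hox genes encode homeodomain transcription factors that set the identity of segments along the body axis. Their order in a cluster follows the order of their expression, with low paralog numbers active towards the head and high numbers towards the tail and in the tips of the limbs. Polycomb complexes keep unused Hox genes shut, CTCF binds between Hox genes at the borders of shut and active stretches, and proteins of the TALE family bind DNA together with Hox proteins.

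In 7 of the 10 highest places of the clusters both libraries had a footprint over 1 kind of sequence, shown first because later results refer to it. A footprint is a short stretch within a peak that the authors called as protected from cutting. In 11 of the 91 places inside the clusters where both libraries had overlapping peaks, the footprints of both libraries held the core of the CTCF consensus, CCNNNAGGNGGC, with at most 1 of its 8 fixed letters changed, a form chosen after seeing the data. Such cores were not particular to the Hox clusters. Of all such places in the genome, 8.23% within 1 kb of a start and 25.8% elsewhere had one. Among those at least as high as the 20th Hox place the share was 33.2%. Of the 11 Hox sites, 10 are printed 5′ to 3′ on the strand of the core, with the core in capitals and 9 reference bases on each side. Coordinates are those of the core on mm10, and sites outside promoters are placed between the nearest start codons.
Hoxa5 promoter (chr6:52204659-52204670, minus strand): gcccagtctCCAGCGGGTGGCgctcgagtc
Hoxa7 promoter (chr6:52221809-52221820, minus strand): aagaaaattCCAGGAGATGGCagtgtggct
Hoxa10 promoter (chr6:52240541-52240552, minus strand): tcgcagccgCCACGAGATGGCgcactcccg
between Hoxa11 and Hoxa13 (chr6:52257121-52257132, plus strand): agcttgtcaACACGAGGTGGCgcccttgat
Hoxb5 promoter (chr11:96303245-96303256, plus strand): cgtcaatcgCCGGGAGGTGGCgcgctctgc
between Hoxb8 and Hoxb9 (chr11:96278948-96278959, plus strand): gcacagtggCCGCTAGATGGCatccttgct
near Hoxb9, towards Hoxb13 (chr11:96261753-96261764, minus strand): cgcgaccgaCCTCTAGGCGGCgccctggcg
midway between Hoxb9 and Hoxb13 (chr11:96235106-96235117, minus strand): ctctcgcggCCGGCAGGGGTCactgtgtgg
between Hoxc8 and Hoxc9 (chr15:102987593-102987604, plus strand): aacaagtgaACGCGAGGTGGCgctgttgct
between Hoxd4 and Hoxd8 (chr2:74715921-74715932, plus strand): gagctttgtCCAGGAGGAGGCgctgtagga
The 3 exact cores among these lay between Hoxd4 and Hoxd8, in the Hoxb5 promoter and near Hoxb9. In 8 sites the core ran in the direction in which the Hox genes of that cluster are transcribed. The 3 sites in the opposite direction lay between Hoxa11 and Hoxa13 or between Hoxb9 and Hoxb13.

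A gene is called open here if overlapping peaks of both libraries lay within 1 kb of a start of one of its protein-coding transcripts. In this whole tissue fewer cells with an accessible site and less accessibility per cell cannot be told apart, and some peaks may belong to neighbouring transcripts, which overlap in these clusters. Of the 39 Hox genes 25 (64.1%) were open, against 64.5% of all genes. Replicate 1 had a peak at 30 Hox genes (all genes 66.6%) and replicate 2 at 26 (all genes 67.3%). A peak in 1 library only stood at 6 Hox genes (all genes 4.39%), and 8 had none in either (all genes 30.8%). By cluster, 7 of 11 Hoxa genes, 7 of 10 Hoxb genes, 6 of 9 Hoxc genes and 5 of 9 Hoxd genes were open. No peak was counted for more than 1 member.

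The share of open genes ran from 55.6% in Hoxd to 70.0% in Hoxb across clusters, and over a wider range along them. Open were 9 of 12 genes with paralog numbers 1 to 4, 10 of 11 with numbers 5 to 8, and 6 of 16 with numbers 9 to 13, which are shares of 75%, 90.9% and 37.5%. Every gene of paralog numbers 3, 5, 6, 7 and 10 was open. None of the 3 genes numbered 11 and neither of the genes numbered 12 was, and of the 4 numbered 13 only Hoxc13 was. Counting peaks within 1 kb of the start codon of principal transcripts, a choice made after seeing the data, gave 8 of 12, 10 of 11 and 5 of 16, beside 46.7% of all genes. The 2 genes lost were Hoxa10 and Hoxd3. These are counts with no test, since the members of a cluster share chromatin.

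Heights are the authors' signal values, taken here as normalised for depth, although the sources used here do not name their scale, and a member's height is that of its highest peak within 1 kb of a start. The 25 open Hox genes had a median of 2.18 over the mean of both libraries, against 3.91 for all open genes. Only Hoxa4, Hoxa5, Hoxa7 and Hoxb5, 4 of 25, were above the all-gene median, where 50% of open genes lie by construction. The 33 of 44 open forkhead genes had a median of 2.64 and the 95 of 141 open homeobox genes outside the clusters one of 1.32. Both of these groups were chosen after seeing the data. By gene, open Hox promoters therefore lay below the middle of open promoters in height and between the other developmental regulators. A gene with more starts has more peaks from which the highest is taken, and the number of starts was not matched. By place with overlapping peaks of both libraries near a start, the medians were closer, 1.59 for Hox and 2.07 for all genes.

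**Figure D1:**
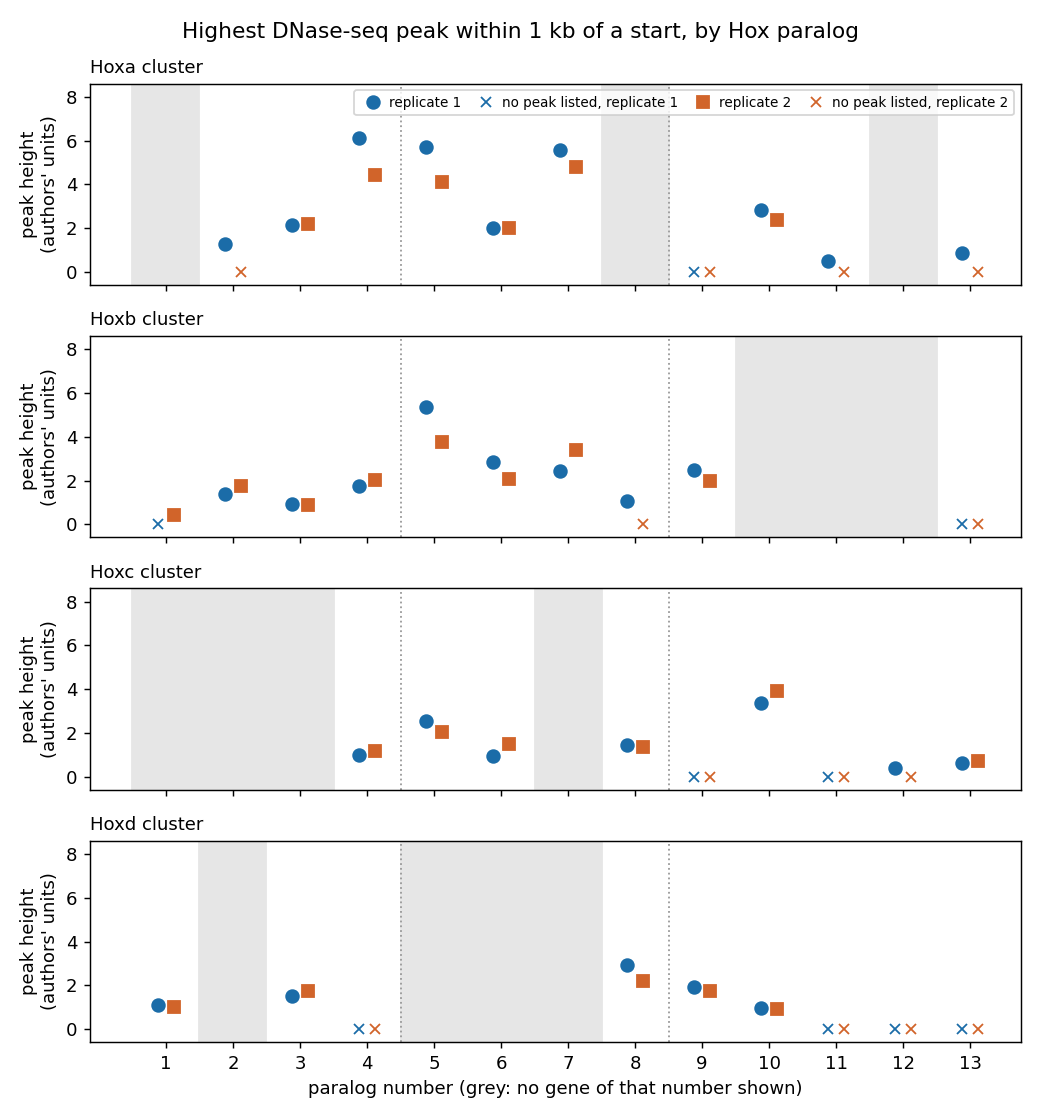
Highest peak within 1 kb of a start for the Hox genes reported by name, by paralog number (x) and height in the authors' units (y), with replicate 1 as circles, replicate 2 as squares and crosses where no peak is listed. Filled pairs crowd at numbers 3 to 10, Hoxa4 is highest in replicate 1 at 6.11 and Hoxa7 in replicate 2 at 4.78, and crosses crowd at 11 to 13.

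Among the low numbers, Hoxa3, needed for thymus and parathyroid, had heights of 2.16 in replicate 1 and 2.20 in replicate 2, which are nearly the same. The Hoxa3 peak lay at chr6:52213101-52213420 in replicate 1, in a UTR exon of Gm28308 between Hoxa6 and Hoxa7. The start codon of Hoxa3 lies elsewhere, under a higher peak of 4.66 and 4.84 that is not within 1 kb of a start. Hoxa4 had the highest promoter peak of all members by the mean, with 6.11 and 4.44, and in replicate 2 it was below Hoxa7. Its peak lay at chr6:52191841-52192040 in replicate 1. That peak was centred 187 bp before the start, within introns of longer transcripts of Hoxa3. Hoxb2, a hindbrain gene, had 1.39 and 1.75, within its coding sequence. Hoxb3 had 0.95 and 0.88, in different peaks of the 2 libraries. Hoxb4, known for expanding blood stem cells, had 1.77 and 2.01. These 3 Hoxb genes all lay below the median of open Hox genes. Hoxc4 had 1.01 and 1.17, Hoxd1, a gene of sensory neurons, 1.12 and 1.03, and Hoxd3, which shapes the neck vertebrae, 1.497 and 1.740. The open Hoxc and Hoxd genes of this group were thus all below the median of open Hox genes. The Hoxd3 peak lies where the longest records of both Hoxd3 and Hoxd4 begin. It is far from the Hoxd3 start codon, which lies in a long stretch without listed positions.

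The middle group held 3 of the 4 members above the all-gene median. Hoxa5, required for the lung and airway, had 5.70 in replicate 1 and 4.09 in replicate 2. Hoxa7 had 5.55 and 4.78. Hoxb5, a gene of the enteric nervous system, had 5.38 and 3.74, with the peak of both libraries at chr11:96303141-96303340. Each of these 3 peaks held one of the CTCF-like cores printed above. Hoxa6 between them had 1.99 and 2.00, Hoxb6 2.84 and 2.09, and Hoxb7 2.44 and 3.40. Replicate 1 was the higher at Hoxb6 and replicate 2 at Hoxb7. In the Hoxc cluster, Hoxc5 had 2.53 and 2.03, and Hoxc8, which sets the identity of brachial motor neurons, 1.44 and 1.37. Hoxc6 had 0.93 and 1.51, in different peaks of the 2 libraries. Hoxd8, the only Hoxd gene of this group, had 2.93 and 2.17 and the highest promoter peak of its cluster, at chr2:74704701-74704980. The paralogs 5 therefore stood at 4.89, 4.56 and 2.28 on average in Hoxa, Hoxb and Hoxc, and the paralogs 6 at 1.99, 2.46 and 1.22.

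Of the high numbers, Hoxc10, a gene of the lumbar spinal cord and hindlimb, was the highest, with 3.35 and 3.93 in replicate 1 and replicate 2. It was also the highest promoter peak of the Hoxc cluster. Hoxa10, which acts in the lumbar skeleton and the uterus, had 2.84 and 2.36, in a UTR exon. Hoxb9, a gene of the ribs, had 2.46 and 1.96. Unlike Hoxc10, these were both higher in replicate 1. Hoxd9 had 1.91 and 1.75, and Hoxd10 had 0.97 and 0.94. Hoxc13, needed for hair and nails, was the only open gene above number 10 and the lowest open member, at 0.62 and 0.73. Its nearest open neighbour in the cluster was Hoxc10.

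The 6 members with a peak in 1 library were low, and 5 of them had it in replicate 1. Hoxa2, which patterns the second branchial arch, had 1.25 in replicate 1. Replicate 2 listed an overlapping peak of 1.24 whose near edge fell just outside the 1 kb limit, so with 2 kb Hoxa2 was open. Hoxb8, a gene of myeloid cells, had 1.05 in replicate 1, Hoxa13, a gene of digits and the genital tract, 0.86, Hoxa11, a gene of the forearm and kidney, 0.50 and Hoxc12 0.42. Hoxb1, the gene of the fourth rhombomere, had 0.44 in replicate 2. The 8 members with no peak listed in either library were Hoxa9, Hoxb13, Hoxc9, Hoxc11, Hoxd4, Hoxd11, Hoxd12 and Hoxd13. The set includes the prostate and tail gene Hoxb13 and the digit gene Hoxd13. Hoxd4 depended on which start is used. Its longest record begins beside that of Hoxd3, and counted from that end it was open, whereas Hoxb3 and Hoxc4 then were not.

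The heights of the open members recurred closely. The log2 ratio of replicate 2 over replicate 1 had a median of −0.07 and ran from −0.52 at Hoxb5 to 0.71 at Hoxc6. The highest peaks of the 2 libraries overlapped at 23 of the 25. The definition of open favours this, since it requires overlapping peaks, so it does not measure recurrence. Replicate 1 was higher at 14 and replicate 2 at 11. For all open genes the median was −0.05 and the central 95% ran from −0.66 to 0.68, so only Hoxc6, 1 of 25, lay outside it (all open genes 5.01%). Footprints near Hox starts overlapped between the libraries in smaller shares than footprints near all genes. Within 1 kb of Hox starts replicate 1 had 215 footprints and replicate 2 129, and 25.6% and 45.7% of them overlapped one of the other library, against 56.1% and 55.5% for footprints near all genes. At least 1 footprint in both libraries stood at 23 of 39 Hox genes (all genes 63.1%). Hoxa7 had the most overlapping ones, 7 of 20 in replicate 1 and 8 of 10 in replicate 2, over its 4 starts. Across the whole clusters the overlapping shares were 14.4% and 51.4% in Hoxa, where replicate 1 had 229 footprints and replicate 2 72, 26.6% and 31.9% in Hoxb, 26.3% and 25.7% in Hoxc, and 35.6% and 38.1% in Hoxd. Over all footprints of the genome they were 53.7% in replicate 1 and 44.8% in replicate 2, so only Hoxa in replicate 2 lay above its genome share.

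The promoter peaks of Hoxa4 and Hoxb5, the highest of their clusters by the mean of both libraries, are printed on the strand of the gene to show where footprints of both libraries fell, in capitals. They are mm10 reference sequence, and differences of the F1 hybrid from it were not examined.
Hoxa4 (chr6:52191841-52192040, minus strand): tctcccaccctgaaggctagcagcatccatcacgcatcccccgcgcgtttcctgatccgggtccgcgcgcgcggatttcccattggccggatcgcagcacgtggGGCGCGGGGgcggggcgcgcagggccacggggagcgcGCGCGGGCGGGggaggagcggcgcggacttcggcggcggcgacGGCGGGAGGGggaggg
Hoxb5 (chr11:96303141-96303340, plus strand): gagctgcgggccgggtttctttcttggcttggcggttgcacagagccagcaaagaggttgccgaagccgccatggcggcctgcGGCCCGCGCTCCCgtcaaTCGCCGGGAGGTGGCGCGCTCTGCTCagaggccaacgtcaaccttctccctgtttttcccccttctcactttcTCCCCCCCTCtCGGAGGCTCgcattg
At Hoxa4 the footprints of both libraries covered 30 of 200 bases, in GC-rich runs. The SP/KLF letters GGGCGGG lie within the footprinted run GCGCGGGCGGG and also overlap the run GGCGCGGGG. Outside the footprints the segment holds the NFY letters CCAAT on the opposite strand and an E-box, CACGTG. In Hoxb5 the longest footprint covers the CTCF-like core, and 58 of 200 bases were footprinted in both libraries. Among 46 Hox regions near starts, in the central 150 bp and on both strands, CCAAT occurred in 15 (32.6%, against 20.2% of all regions near starts) and CACGTG in 6 (13.04% against 5.46%). GGGCGGG occurred in 3 (6.52% against 30.5%), and the NRF1 letters GCGCNTGCGC in 0 of 46 (5.26% of all). The median GC content was close, 64.0% in Hox and 65.3% in all such windows. Among the 45 Hox regions elsewhere, CCAAT occurred in 7 (15.6% against 17.0%) and CACGTG in 2 (4.44% against 3.56%). GGGCGGG occurred there in 5 (11.1% against 5.18%), and the median GC content was 59.3% in Hox and 53.3% in all such windows. The homeodomain letters TAATTA occurred in none of the 91 (0.511% of all regions near starts and 1.45% of the others). The PBX-HOX letters TGATTNAT were in 1 of 46 near starts (0.423% of all) and in 0 of 45 elsewhere (1.86%). The posterior HOX letters TTTATNG were in 3 of 46 (6.52% against 2.04%) and 2 of 45 (4.44% against 3.55%), and the MEIS letters TGACAG in 3 of 46 (6.52% against 7.91%) and 4 of 45 (8.89% against 11.7%). CAAGGTCA, the site of the steroidogenic factor SF-1, was in 0 of 46 (0.551%) and 1 of 45 (2.22% against 1.99%). AP-1 letters, TGANTCA, were in 2 of 46 (4.35% against 2.77%) and 2 of 45 (4.44% against 10.4%). With counts this small, 1 region moves each share by over 2 percentage points. A match describes the letters only.

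Peaks were dense inside the clusters. From the first to the last base of their genes the 4 clusters span 491.8 kb, which held 248 peaks in replicate 1 and 136 in replicate 2, or 50.4 and 27.7 per 100 kb. The 100 kb on each side held 5.25 and 6.25 per 100 kb and the genome 3.62 and 4.34. Hoxa had 114 peaks in replicate 1 and 25 in replicate 2. Hoxb (chr11:96194316-96368256) had 85 and 64, Hoxc (chr15:102921103-103036852) 32 and 32, and Hoxd (chr2:74668310-74765142) 17 and 15. The Hoxa cluster thus differed between the libraries by far more than the other 3 did.

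**Figure D2:**
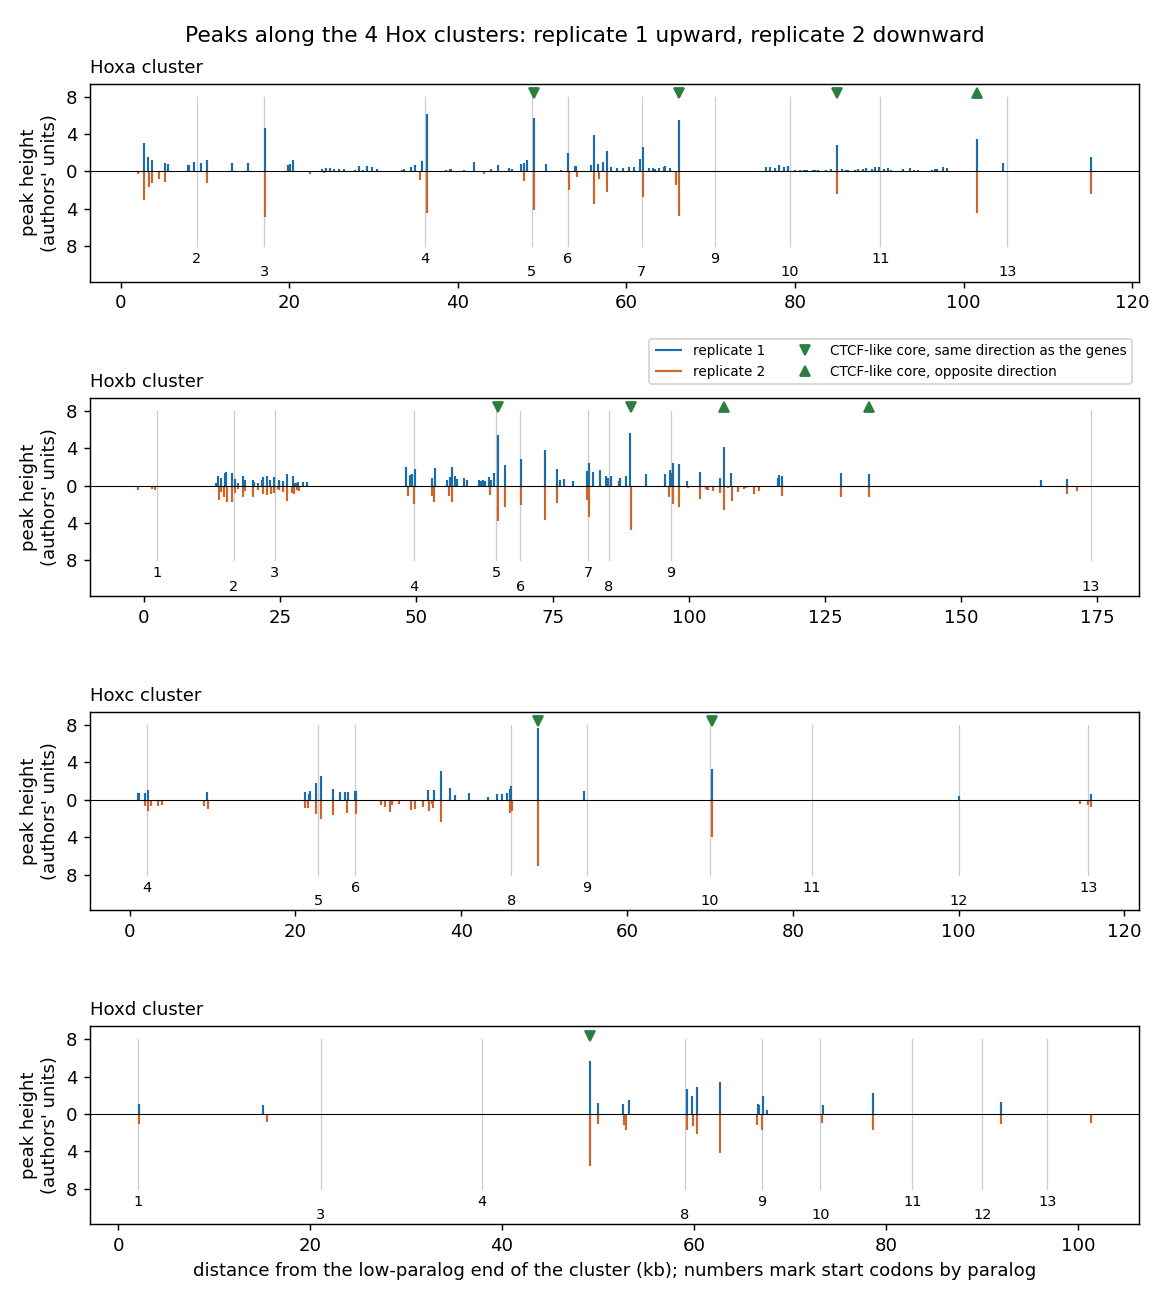
Peaks of replicate 1 (up) and replicate 2 (down) by distance in kb from the low-paralog end of each cluster, with height in the authors' units, numbered start codons and green triangles at the 11 CTCF-like cores. The tallest lines of both libraries mostly meet under a triangle, up to 7.74 and 7.03 between Hoxc8 and Hoxc9, and beyond Hoxc10 and Hoxd10 few lines remain.

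Outside promoters, the highest peak of the clusters stood between Hoxc8 and Hoxc9 at chr15:102987521-102987700, with 7.74 in replicate 1 and 7.03 in replicate 2. It was higher than any Hox promoter and than 97.6% of all regions with peaks in both libraries. On its low-paralog side Hoxc4, Hoxc5, Hoxc6 and Hoxc8 were all open, and on its other side only Hoxc10 and Hoxc13 were. This difference depended on the peak list, since Hoxc5 and Hoxc6 were not open in the shorter one. The highest promoter peak of the cluster, that of Hoxc10, also lay on the high-paralog side. In the Hoxd cluster the highest was at chr2:74715841-74716020, 4023 bp after the nearest start of Hoxd3, within introns of the long transcripts of Hoxd3 and Hoxd4, with 5.71 and 5.57. In the Hoxb cluster it was at chr11:96278881-96279060, between Hoxb8 and Hoxb9, with 5.60 and 4.76. In the Hoxa cluster it was at chr6:52172641-52172820, in a UTR exon of Hoxa3, with 4.66 and 4.84. This peak covers the start codon of Hoxa3 and counts as outside promoters only because the transcript starts used here lie elsewhere. The other exact CTCF core outside promoters that lay under a footprint in both libraries was in the peak at chr11:96261661-96261840, with 4.13 and 2.63. All but the Hoxa3 peak held one of the cores printed above.

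The CTCF-like cores lay mainly in the highest regions of the clusters. They were in 7 of the 10 highest of the 91 Hox regions, in 10 of the 20 highest (50%) and in 1 of the other 71, at a median height of 4.56 against 1.23 for Hox regions without one. This contrast is a description only, since the form with a changed letter was chosen after seeing the data. Whether footprints were called more readily in high peaks was not tested. The exact core was in 2 of the 10 highest and 3 of the 20 highest. The same direction held over the genome: 33.2% of the 15694 regions at least as high as the 20th Hox region had such a core, and 15.5% of lower ones. By place, 5 of the 46 Hox regions near starts (10.9%, against 8.23% of all such regions) and 6 of the 45 elsewhere (13.3% against 25.8%) had one. With the exact core these were 1 of 46 (2.17% against 4.25%) and 2 of 45 (4.44% against 11.8%). Binding of CTCF was not measured here.

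**Figure D3:**
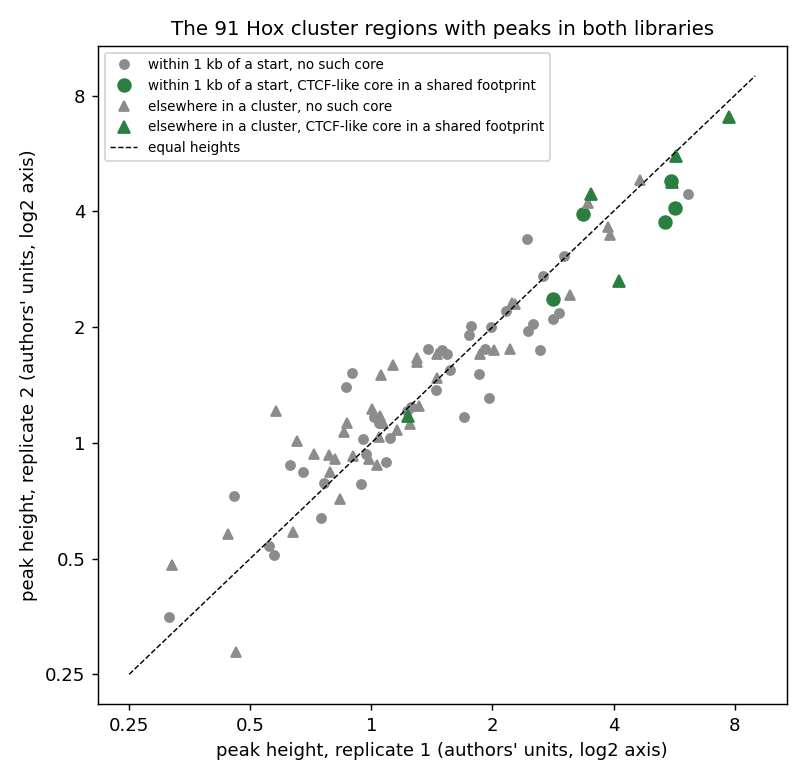
Peak height in replicate 1 (x) and replicate 2 (y), both on log2 axes in the authors' units, for the 91 Hox regions with peaks in both libraries, with circles within 1 kb of a start, triangles elsewhere and green for a CTCF-like core in a shared footprint. Points follow the line of equal heights, and 10 of the 11 green points are among the 20 highest. The form of the core was chosen after seeing the data.

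Accessibility was patchy along each cluster. Replicate 1 listed 41.1% of Hoxa positions under the false discovery rate (FDR) of 0.05 and replicate 2 7.59%. In Hoxb the shares were 15.1% and 13.6%, in Hoxc 8.23% and 7.31%, in Hoxd 5.62% and 5.41%, and in the genome 1.14% and 1.37%. Within 5 kb of the start codons of Hoxb paralogs 1 to 4, 34.1% and 37.4% of positions were listed, with no peak above 2.03. For Hoxb paralogs 5 to 8 the shares were 22.8% and 5.90%, and for Hoxb paralogs 9 to 13 9.28% and 6.30%. Hoxa had 24.6% and 11.7% around paralogs 1 to 4 and 64.6% and 12.8% around 5 to 8. Its paralogs 9 to 13 had 35.3% and 2.12%. In the Hoxc cluster the shares were 8.41% and 10.8% around Hoxc4, 20.2% and 14.4% around paralogs 5 to 8, and 1.52% and 1.52% around paralogs 9 to 13. Around Hoxd paralogs 1 to 4 they were 1.24% and 0.48%, around Hoxd8 16.6% and 17.0%, and around Hoxd paralogs 9 to 13 5.24% and 5.40%.

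Long stretches without any listed position in either library separated these blocks. The longest, 33.4 kb at chr2:74716234-74749596, holds the start codons of Hoxd3 and Hoxd4. A stretch of 29.7 kb, chr15:102936784-102966456, holds those of Hoxc11 and Hoxc12, and one of 13.1 kb, chr2:74673255-74686374, those of Hoxd11 and Hoxd12. Another of 31.3 kb, chr11:96203704-96234981, lies between Hoxb13 and Hoxb9. Hoxb1 begins in one of 10.9 kb. At Hoxa9 nothing was listed over 9.93 kb, chr6:52221999-52231926, although replicate 1 listed positions densely on both sides. An unlisted position can be closed, or left out of the lists, and these cannot be told apart.

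**Figure D4:**
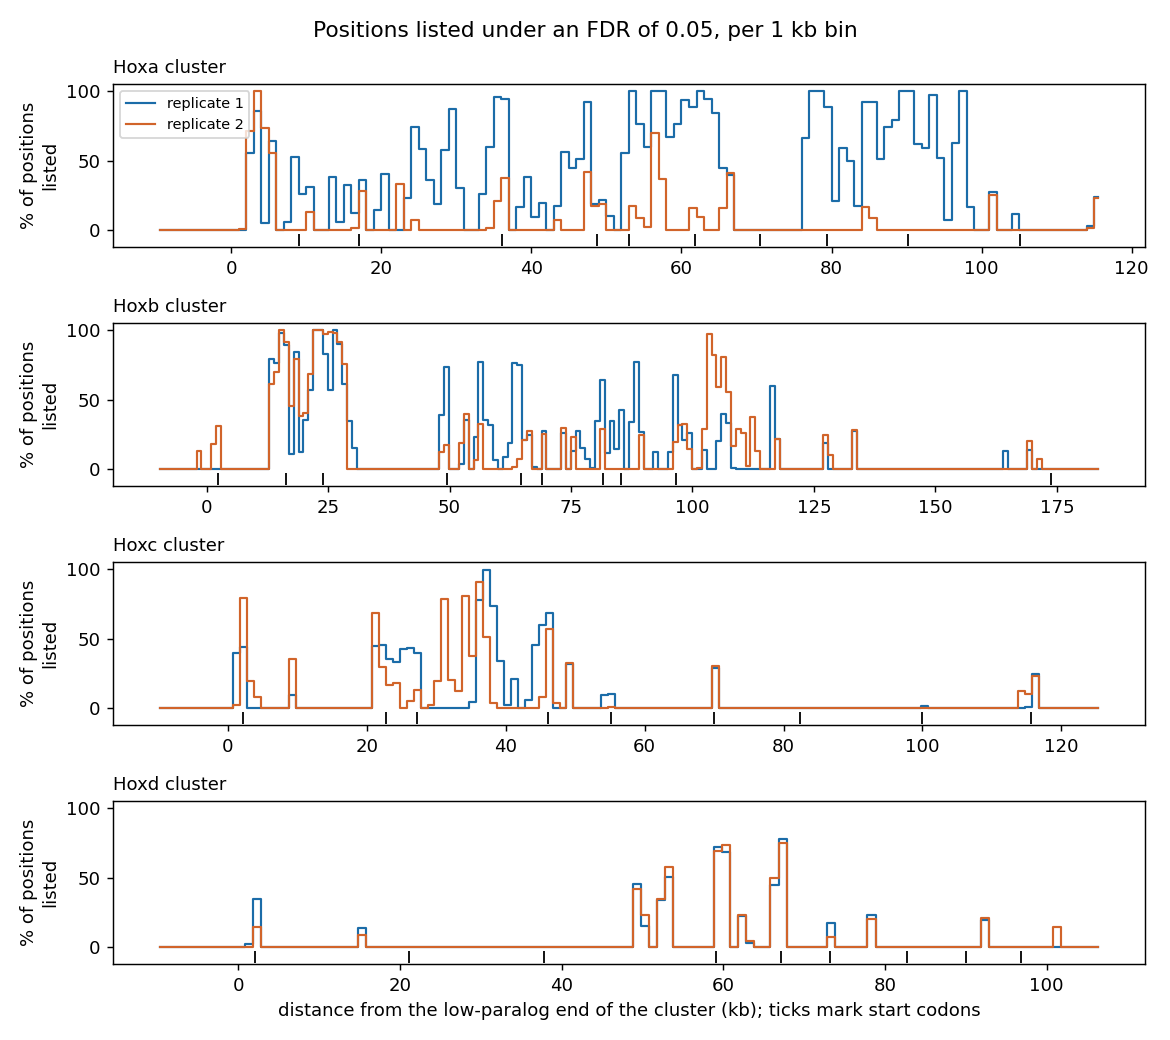
Percent of positions listed under an FDR of 0.05 per 1 kb bin (y) by distance in kb from the low-paralog end (x), in replicate 1 (blue) and replicate 2 (orange), with ticks at start codons. The lines coincide in Hoxd and run apart over most of Hoxa, where replicate 1 lists 41.1% and replicate 2 7.59%.

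The surplus of replicate 1 in the Hoxa cluster consisted of low peaks. Of its 114 peaks, 93 had no overlapping peak in replicate 2, with a median height of 0.350 and a highest of 1.36, and 67 were below 0.5, against 4 of 25 in replicate 2. Replicate 2 had 6 peaks without an overlapping one. Among the shared promoter peaks those of Hoxa3 and Hoxa6 were nearly equal between the libraries, and those of Hoxa4 and Hoxa5 were higher in replicate 1. Over the 4 clusters 41.5% of replicate 1 peaks and 72.8% of replicate 2 peaks were shared, against 69.8% and 58.1% of all peaks. Without the Hoxa cluster, added after seeing the data, these were 61.2% and 72.1%. The pattern was not limited to Hox genes. Of the 810 windows of 100 kb with 20 or more peaks in a library, 552 had more in replicate 1 and 241 more in replicate 2, and the window over the high-paralog part of Hoxa, with 76 and 13, was 8th by the surplus of replicate 1. The cause was not tested. The peaks of Hoxa11 and Hoxa13, at 0.50 and 0.86 in replicate 1, are themselves among the 93 unshared peaks, whose median was 0.350.

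Cofactors of Hox proteins and chromatin regulators of Hox genes were open as whole lists, where 64.5% of all genes were. Ranges in these and the following lists are ordered by the mean of both libraries. All 9 TALE cofactors were open, from Meis3 at 1.30 in replicate 1 and 1.23 in replicate 2 to Pbx3 at 8.69 and 6.98. All 16 Polycomb genes were, from Bmi1 at 2.61 and 1.87 to Cbx8 at 7.996 and 8.182, with a median of 4.998. All 8 trithorax and demethylase genes were, from Kdm6b at 0.58 and 0.95 to Kmt2a, the methyltransferase that maintains Hox expression, at 11.6 and 8.30. Of 12 upstream signalling and architectural genes 8 were open (66.7%, near the share of all genes), from Gdf11 at 0.92 and 0.76 to Rad21, the cohesin subunit, at 4.99 and 4.90. Cdx1, Cdx2 and Cdx4, which drive high-numbered Hox genes in the embryo, had no peak listed. Gmnn was open at 4.49 and 3.69.

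Most genes beside the clusters were open. Of 11 matched neighbours 9 were (81.8%, against 64.5% of all genes), from Skap1 at 0.61 and 0.49 to Skap2, beside the Hoxa cluster, at 8.31 and 8.82. Evx1 and Evx2, the homeobox genes at the high-paralog ends of Hoxa and Hoxd, had none, like Hoxd13 beside Evx2. Of the 3 ParaHox genes only Gsx1 was open, at 1.54 and 1.11, and Gsx2 had no peak.

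The tissue label was checked on marker genes. Of 11 genes of the steroid-producing cortex 8 were open (72.7%, against 64.5% of all genes), from Cyp11b2 at 0.35 and 0.18 to Fdxr at 6.08 and 7.01, and Hsd3b1, Cyp21a1 and Mc2r had no peak listed. Of 10 chromaffin genes 4 were open (40%), with none listed at Th, Ddc and Pnmt. Of the other cells the gland could hold, 8 of 9 fibroblast and capsule genes, 5 of 6 of endothelium and 4 of 5 of adipocytes were open, and 2 of 5 of macrophages. For kidney epithelium, which is not part of the gland, 2 of 6 were open. Summed over each list the heights were 27.3 and 24.2 for cortex, 22.9 and 18.7 for chromaffin cells, and 18.7 and 19.1 for fibroblasts. Slc18a1 alone gave 12.5 and 9.25 of the chromaffin sums, and Scarb1 7.13 and 5.20 of the cortex sums. The lists also differ in length, so the sums do not rank the cell types. Which cells gave the Hox peaks was not tested. Replicate 1 held 98630 peaks and 228557 footprints and replicate 2 118249 and 273271. Median heights were 0.717 in replicate 1 and 0.750 in replicate 2 in the authors' units. These are 135 and 100 steps of the smallest unit, which differs between the libraries.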

How the data were processed

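DNase-seq of adrenal gland was analysed in 2 libraries of 1 group. Per the file index text, the authors deposited for each library 2 peak lists, footprints and FDR files on mm10. Which aligner and callers they used is not given in the sources used here. Peak height is a signal made by the authors on a scale they do not name, taken here as normalised for depth. It came in whole multiples of a step (0.00531 in replicate 1, 0.00750 in replicate 2). The deposited FDR, a q-value, is listed only under 0.05. Footprint scores deposited by the authors were 0.01 throughout and were not used.

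The longer peak list was used. Genes came from GENCODE vM21, after 54 records with shared symbols were left out, leaving 54236 starts. Peaks overlapping by 1 bp were shared. Motifs were 16 consensus sequences in 150 bp windows. Percents of listed positions were summed from the FDR intervals, and regions join overlapping peaks of both libraries. No test was run, as the design has 1 condition. Python 3.11.15 with numpy 2.4.6 and pandas 2.3.3 was used, and assignment and motif search were tested on simulated data.

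Members are named, with values where a peak is listed, except 1 member, which with 1 cofactor gene and 1 promoter sequence is not reported here by itself. Coordinates are otherwise given for the highest promoter and other peak of each cluster and peaks with an exact CTCF core under footprints of both libraries. The highest, the lowest and absent genes of other lists are named. Members and lists were chosen with earlier results of these data known. Alternatives were the shorter list, single libraries, other distances and starts, higher peaks, other overlaps and extents.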

Additional observations from a re-analysis of the deposited data

How the results depend on the processing

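Leaving aside the peak density of each library alone, which lies within 1 SD of their mean by construction, 93 values were recomputed under alternatives, and 80 stayed within 1.5 times the count, within 1 SD between the libraries or within the 95% Clopper-Pearson interval, which covers counting error only. These limits are wide. The SD of the peak density was 16.1 per 100 kb, so 25.9 in the shorter list counted as unchanged from 39.04. From each library alone, the count of open Hox genes ran from 26 to 30, the median height from 1.84 to 2.01, and peaks per 100 kb (39.04 on average) from 27.7 to 50.4. In the shorter peak list 19 Hox genes were open (48.7%, against 59.9% of all genes), among them 3 of 9 in Hoxd, and the lost ones were Hoxb4, Hoxb6, Hoxc5, Hoxc6, Hoxd1 and Hoxd10. With 2 kb around starts the median height was 2.02 and footprints per library averaged 261.5 in place of 172, since the windows are wider. Summing heights over a promoter's peaks gave a median of 3.63. Peaks above the median height numbered 22.7 per 100 kb and were shared in 65.4% (replicate 1) and 85.4% (replicate 2). With a required overlap of 0.5 of a peak, 32.7% and 64.0% were shared, and without the Hoxa cluster 61.2% of replicate 1. Allowing a changed letter in the CTCF core while requiring it wholly inside the footprint gave 11 regions in place of 3. In all 8 alternatives that recounted open genes, paralogs 9 to 13 had the smallest share of open genes. No paired analysis was possible because there is 1 group. A peak of few cells can lie under the lowest listed height.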
